A study of Rattus norvegicus with 6 samples.

Results

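The genes described here belong to autophagy, mitophagy and the lysosome, and were followed in right ventricular (RV) tissue of rats with Sugen hypoxia (SuHx) pulmonary hypertension. The members were taken by gene name and comprise 44 genes in 5 groups named initiation, conjugation, receptors, mitophagy and lysosome. Of these, 39 are among the 12958 named genes of the deposited table, and all 39 had a mean of at least 10 normalised counts over the libraries, the level required for testing, as did 10725 genes in all. Map1lc3b, Gabarapl1, Nbr1, Atg2a and Park2 are not analysed here. The control group held 3 RV libraries of male Sprague-Dawley rats at day 0, and the SuHx group 3 libraries of male Sprague-Dawley rats 8 weeks into the SuHx protocol, in which SU5416, a blocker of VEGF receptor signalling, was injected before a period of hypoxia that gave way to normoxia. The labels call the SuHx tissue decompensated, and the rats were adult per the study's methods. Since no control was taken at 8 weeks, treatment, elapsed time and growth cannot be told apart in any comparison below. In bulk tissue, fewer cells of a type and less RNA per cell cannot be told apart either.

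Autophagy encloses cytoplasm in a double membrane, the autophagosome, and delivers it to the lysosome for breakdown. The Ulk1 kinase complex and the Becn1 lipid kinase complex start the membrane, ubiquitin-like conjugation enzymes attach proteins of the LC3 and GABARAP families to it, receptors such as Sqstm1 link cargo to those proteins, and cathepsins digest the cargo. Mitophagy is the removal of mitochondria by this route, and the mitochondrion-rich cardiomyocyte depends on it for the turnover of damaged organelles.

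The windows just upstream of 5 of these genes are shown because Tfeb, a transcription factor of lysosomal genes, is known to bind the letters CACGTG, and because these genes stood at different places in the comparison below. They are the 250 bases before the annotated start, read in the direction of the gene, from RefSeq on the assembly GRCr8, and every CACGTG is in capitals. The positions are chr5:155825951-155826200, minus strand, for Pink1, chr10:35037751-35038000, minus strand, for Sqstm1, chr17:769854-770103, plus strand, for Ctsl, chr1:206968822-206969071, minus strand, for Ctsd, and chr16:83075064-83075313, minus strand, for Lamp1.
Pink1: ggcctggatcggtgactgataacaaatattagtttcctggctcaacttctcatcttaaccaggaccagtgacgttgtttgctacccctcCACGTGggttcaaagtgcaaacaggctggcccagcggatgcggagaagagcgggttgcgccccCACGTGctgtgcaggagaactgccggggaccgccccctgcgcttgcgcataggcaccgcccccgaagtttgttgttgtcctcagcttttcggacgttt
Sqstm1: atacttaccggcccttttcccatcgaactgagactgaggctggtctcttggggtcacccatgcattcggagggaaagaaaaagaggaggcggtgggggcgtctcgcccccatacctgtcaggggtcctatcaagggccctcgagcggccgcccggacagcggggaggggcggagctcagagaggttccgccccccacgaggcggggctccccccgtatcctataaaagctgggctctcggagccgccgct
Ctsl: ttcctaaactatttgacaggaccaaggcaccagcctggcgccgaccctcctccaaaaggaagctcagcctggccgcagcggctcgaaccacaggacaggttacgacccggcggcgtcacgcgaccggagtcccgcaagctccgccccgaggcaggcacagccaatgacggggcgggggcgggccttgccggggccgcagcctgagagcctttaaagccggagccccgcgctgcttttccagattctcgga
Ctsd: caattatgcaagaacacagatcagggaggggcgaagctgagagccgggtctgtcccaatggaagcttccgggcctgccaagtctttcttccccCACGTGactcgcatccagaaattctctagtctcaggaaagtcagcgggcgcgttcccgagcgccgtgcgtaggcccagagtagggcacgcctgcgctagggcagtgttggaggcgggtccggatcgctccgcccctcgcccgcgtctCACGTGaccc
Lamp1: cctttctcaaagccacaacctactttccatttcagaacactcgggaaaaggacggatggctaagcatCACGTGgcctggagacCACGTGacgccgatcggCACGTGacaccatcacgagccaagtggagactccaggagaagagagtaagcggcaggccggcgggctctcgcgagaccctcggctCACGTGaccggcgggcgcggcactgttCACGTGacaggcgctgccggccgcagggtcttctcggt
CACGTG, which reads the same on both strands, occurred 2 times in the Pink1 window, 2 times in that of Ctsd, 5 times in that of Lamp1, and 0 times in those of Sqstm1 and Ctsl. It was found in 5 of the 33 members with a window, namely Atg3, Atg5, Ctsd, Lamp1 and Pink1, and in 5.59% of 33469 windows of this length. The longer TCACGTGA, also its own reverse complement, contains the shorter motif. It was found in 3 of the 33, Atg3, Ctsd and Lamp1, and in 0.657% of all windows. Members were counted by gene and the background by window, and no test was made between them. A match describes the letters of a window and says nothing of binding. Windows for Atg9a, Becn1, Ctsb, Fundc1, Map1lc3a and Rb1cc1 are not shown.

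Normalised counts summed to between 11607609 and 12393415 per control library and between 12754296 and 18249330 per SuHx library. The letters A to C were given to the SuHx libraries here, as all 3 labels name the same column, and no label says that each library came from its own rat, so p-values measure the spread between libraries, which may be technical. Over the 10725 genes, correlations of log2 values were 0.9418 to 0.9452 within SuHx and 0.8811 to 0.9214 within control. Control 3 stood at 0.8811 with control 1, at 0.8953 with control 2 and at 0.8595 to 0.8802 with SuHx. Controls 1 and 2 each correlated more closely with every SuHx library, at 0.8931 to 0.9181, than with control 3. Control 3 thus stood apart over all genes as well as among the members. Control 1 held 53826 summed counts of atrial markers against 2265 and 1262 in controls 2 and 3 and 16984 to 19424 in SuHx. Of these markers, Nppa was at 36639 in control 1, 57.3 and 43.1 in controls 2 and 3, and 15462 to 17508 in SuHx. Myl4 was at 9629 in control 1, 15.6 and 40.2 in controls 2 and 3, and 41.0 to 58.1 in SuHx. Bmp10 was at 2363 in control 1 and at 0 in every other library. The 8 cardiomyocyte markers, which include Myh6 and Tnnt2, were all present, with sums of 590070 to 669493 in control and 387499 to 422185 in SuHx. Fold changes were positive in 6 of the 8. Myh6 had means of 361403 in control and 148846 in SuHx and Tnni3 of 52320 and 31250, whereas Tnnt2 was at 89598 and 90500. The gap in the sum was thus mainly that of Myh6, and its part in the differences below was not tested. Genes of long transcripts minus ribosomal protein genes, a sign of RNA quality, stood at -0.48 ± 0.25 log2 units (SD, n = 3) in control and 0.47 ± 0.31 in SuHx. The groups did not overlap (exact permutation p = 0.1, two-sided, the smallest that 3 against 3 libraries can give). Control 3 was the lowest at -0.75, with -0.43 and -0.27 in controls 1 and 2. The part of RNA quality in the differences below was not tested.

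None of the 39 genes was called between SuHx and control RV in either direction at an adjusted p under 0.05, by limma on log2(normalised count + 1) with Benjamini-Hochberg adjustment over all 10725 genes, which called 1.55% of all genes higher and 0.671% lower, 2.22% in all. At an unadjusted p under 0.05 the same limma test found 7 members higher, where 9.61% of all genes were, and 4 lower, where 7.59% were, which makes 28.2% of the members against 17.2% of all genes. Becn1, Atg13, Ambra1, Sqstm1, Optn, Ctsb and Ctsl made up the former, and Atg10, Atg4d, Pink1 and Fundc1 the latter. With the libraries rescaled to equal totals, limma found 0 members higher and 5 lower at that limit. That scaling lowered genes in general, with a median log2 fold change of -0.31 over all genes and 88 called higher and 190 lower. The share of all genes at the unadjusted limit is not given for it. In 9 members every SuHx library lay above every control, as in 12.9% of all genes, and in 5 every SuHx library lay below, as in 11.6%. The groups overlapped in the other 25 members. Fold changes ran from -0.99 to 0.75 on the log2 scale, with 23 positive and 16 negative, and their median was 0.088 against 0.0095 over all genes tested. The summed members took 0.558% ± 0.0243 (SD, n = 3) of the total without mitochondrial transcripts in control and 0.602% ± 0.0404 in SuHx (exact permutation p = 0.2, two-sided).

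**Figure D1:**
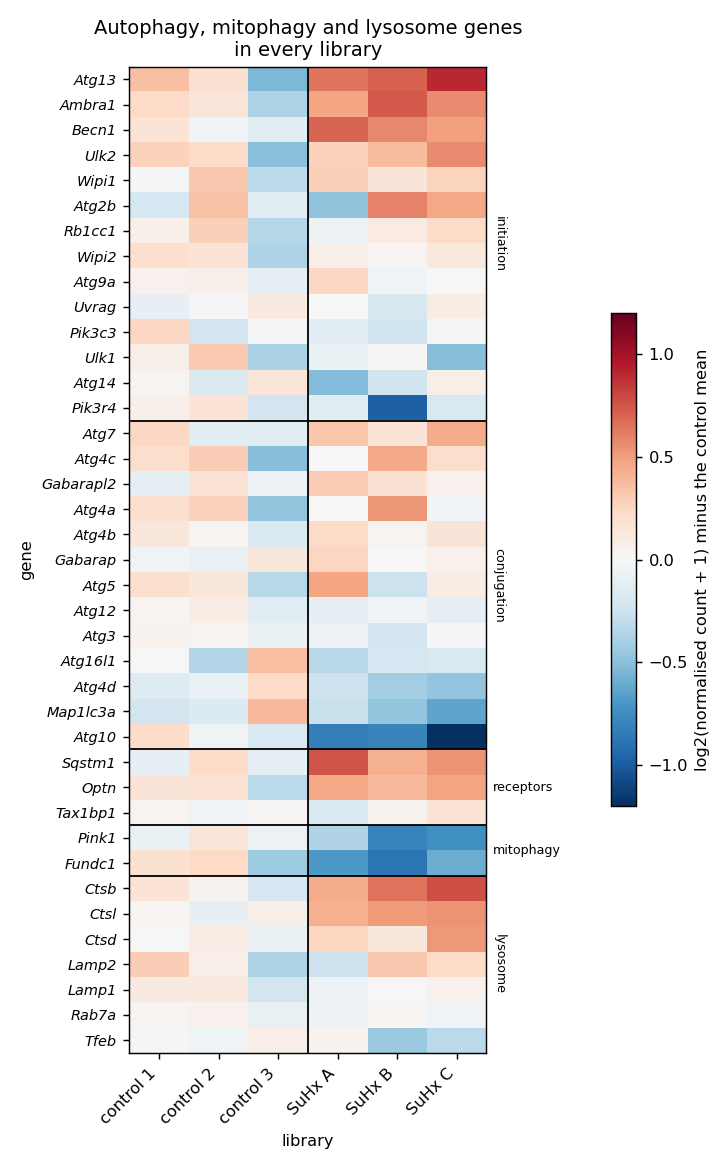
Each row is a gene, each column a library, and colour gives log2(normalised count + 1) minus the mean of the 3 controls, with red above and blue below. Rows are grouped by role and ordered within a group by fold change, and control 3 was the lowest of the 6 libraries in 21 of the 39 genes.

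The members varied more within control than within SuHx. The median coefficient of variation over the 39 genes was 14.6% in control and 9.83% in SuHx, and it was larger in control for 26 genes. Control 3 was lower than both other controls in 26 members and higher than both in 8. Relative to the control mean, the median member lay 0.058, 0.092 and -0.13 log2 units away in controls 1 to 3 against -0.0021, 0.036 and 0.086 in SuHx A to C. Without control 3 the median fold change of the members was -0.058 on the log2 scale, so the sign of the list as a whole was not stable. With equal library totals it was -0.23, where that of all genes was -0.31, so there the members and all genes were lowered together.

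**Figure D2:**
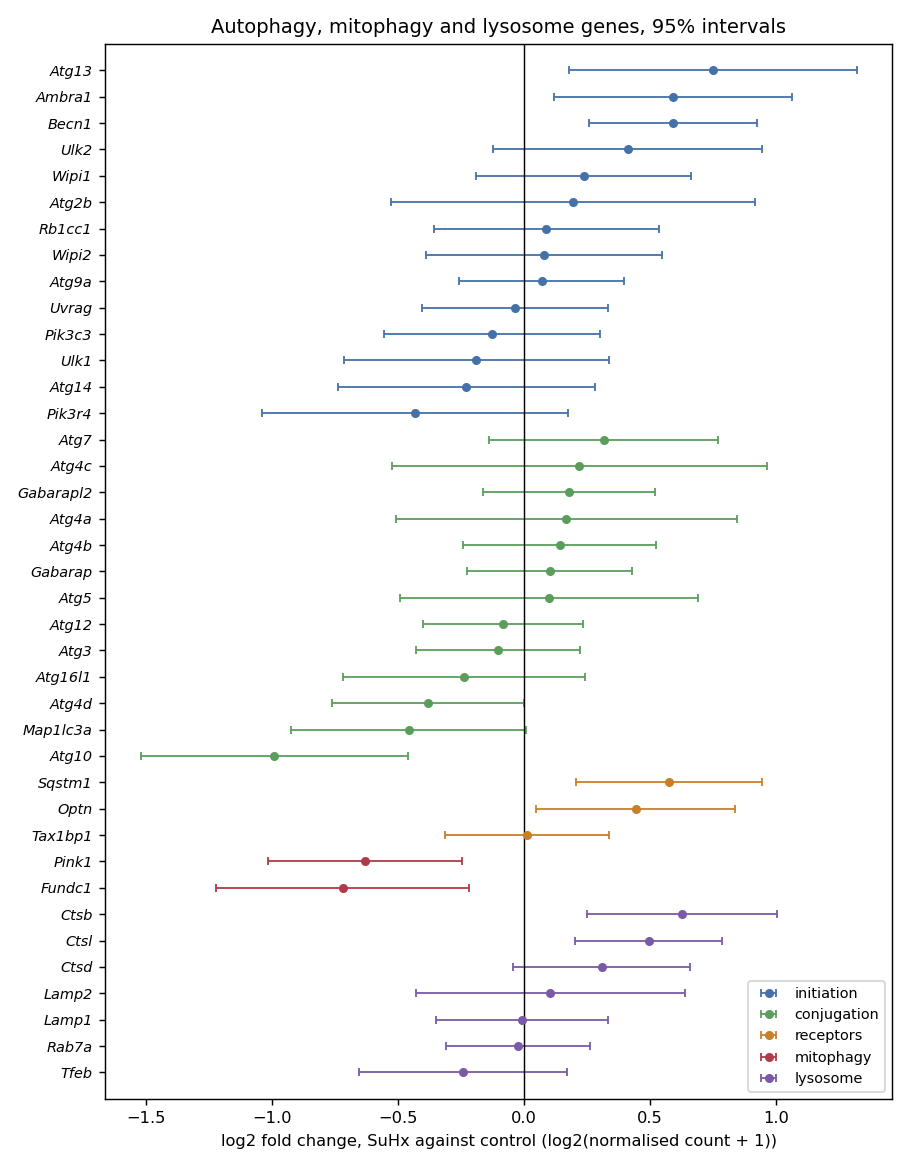
Log2 fold changes of SuHx against control with 95% intervals from limma for the 39 genes, coloured by group, on the log2(normalised count + 1) scale. All points lie between -0.99 and 0.75, and both mitophagy genes lie below 0.

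Among the initiation genes, Becn1, Atg13 and Ambra1 had the largest positive fold changes, while the groups overlapped for the kinase Ulk1 and the lipid kinase Pik3c3. Of the 14 tested, 4 (28.6%) had every SuHx library above every control, where 12.9% of all genes did, and 0 had every one below, where 11.6% did, and the median fold change was 0.083 on the log2 scale. Becn1, the scaffold of the lipid kinase complex that starts the membrane, had normalised counts of 513, 446 and 417 in controls 1 to 3 against 742, 684 and 643 in SuHx A to C. The SuHx libraries all lay above the controls, and Becn1 had the lowest adjusted p of the initiation genes (log2 fold change 0.59, SE 0.14, adjusted p = 0.0934, limma). That is 1.51-fold on this scale. Its partners in the same complex overlapped between the groups. Pik3c3, the catalytic subunit, was at 155, 110.4 and 128 in controls 1 to 3 against 119, 110.1 and 128 in SuHx A to C. Pik3r4, its regulatory subunit, was at 169, 181 and 138 in controls 1 to 3 against 147, 81.6 and 142 in SuHx A to C, with SuHx B far below all others. The fits gave, for Pik3c3, log2 fold change -0.13, SE 0.18, adjusted p = 0.759 (limma) and, for Pik3r4, log2 fold change -0.43, SE 0.26, adjusted p = 0.442 (limma), with a log2 fold change of -0.16 for Pik3r4 without SuHx B. Atg14, which directs the complex to autophagosome formation, had 82.8 ± 9.27 in control and 71.2 ± 14.9 in SuHx (SD, n = 3), and Uvrag, its alternative in later steps, had 155 ± 11.6 in control and 151 ± 14.7 in SuHx. Within a library, the ratio of Becn1 to Pik3c3 was 3.31, 4.04 and 3.26 in the controls against 6.24, 6.21 and 5.03 in SuHx. These ratios are of normalised counts, not per length, and were chosen after the values were seen, so no test is given.

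Atg13, the adaptor that holds the Ulk1 kinase complex together, had normalised counts of 360.1, 319 and 193 in controls 1 to 3 against 438, 459 and 527 in SuHx A to C. Control 3 was far below the other controls, and SuHx stood above all of them (log2 fold change 0.75, SE 0.24, adjusted p = 0.180, limma), with a log2 fold change of 0.48 without control 3. Ambra1, a regulator that binds Becn1, is named after its values were seen, with 164, 155 and 108 in controls 1 to 3 against 194, 235 and 208 in SuHx A to C. Control 3 was again the lowest, and the groups did not overlap (log2 fold change 0.59, SE 0.20, adjusted p = 0.201, limma). Ulk2, also named after its values were seen, was at 441, 426 and 258 in controls 1 to 3 against 443, 476 and 539.8 in SuHx A to C. For this second Ulk kinase SuHx A exceeded control 1 by very little, and the log2 fold change of 0.41 was 0.16 without control 3. Ulk1 itself was at 1130.3, 1343 and 826 in controls 1 to 3 against 1023, 1090.3 and 756 in SuHx A to C. The kinase was lowest in SuHx C and next lowest in control 3, and the groups overlapped (log2 fold change -0.19, SE 0.23, adjusted p = 0.706, limma). Atg9a, a lipid scramblase of the vesicles that seed the membrane, was at 1163, 1168 and 1041 in controls 1 to 3 against 1332, 1087 and 1126 in SuHx A to C, highest in SuHx A, and the groups overlapped (log2 fold change 0.069, SE 0.14, adjusted p = 0.836, limma).

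The other initiation genes all overlapped between groups. Rb1cc1, a scaffold of the Ulk1 complex, had 631 ± 134 in control and 662 ± 67.8 in SuHx (SD, n = 3). Wipi1, which binds phosphoinositides on the forming membrane, had 828 ± 184 in control and 960.1 ± 47.98 in SuHx. Wipi2, which binds them too and recruits Atg16l1, had 118 ± 24.4 in control and 122 ± 4.07 in SuHx. Atg2b, a lipid transfer protein, had 293 ± 65.8 in control and 347 ± 124 in SuHx, and it ranged widely within SuHx, with SuHx A at 207 and SuHx B and C at 438 and 398.

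**Figure D3:**
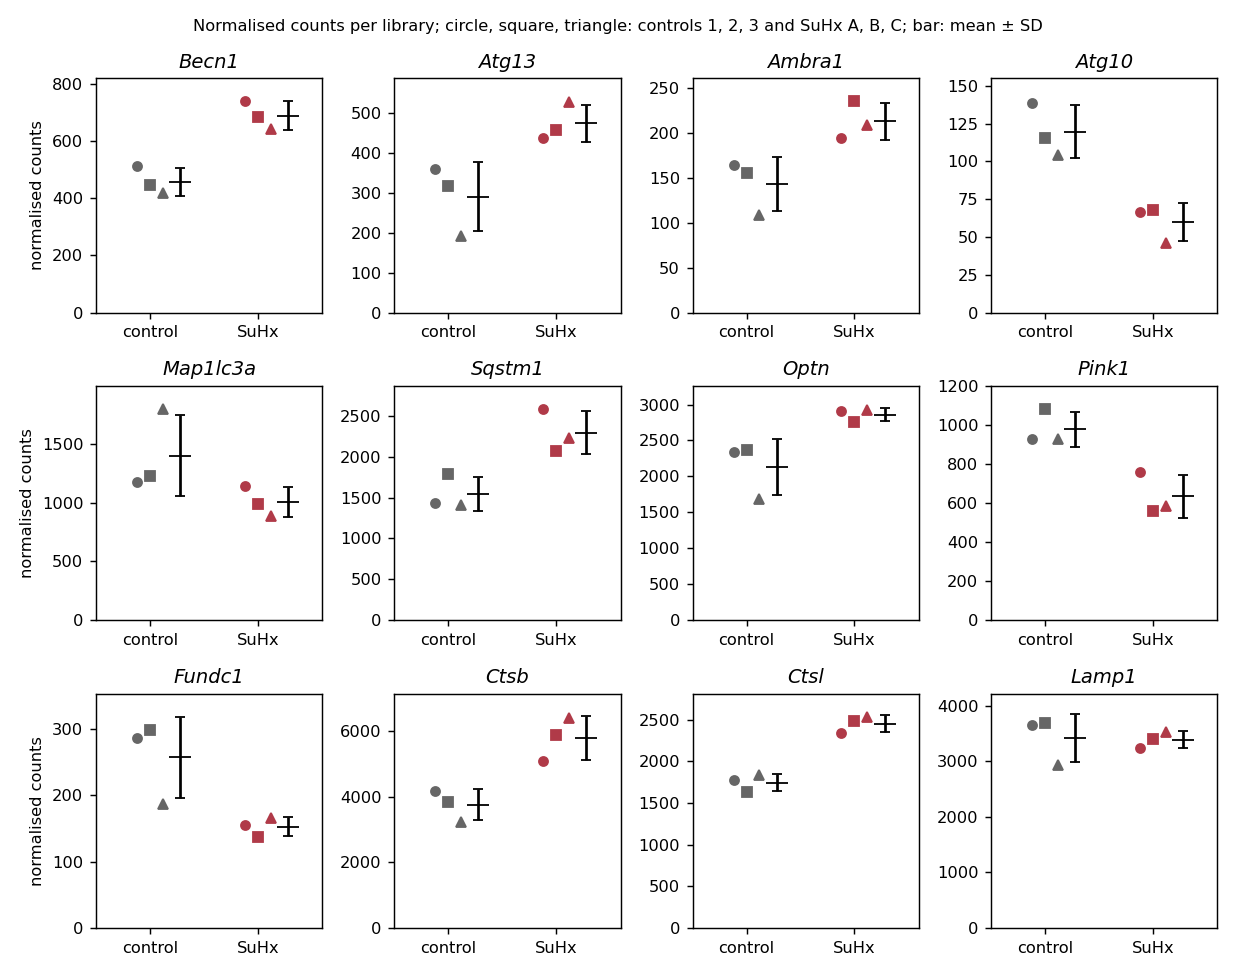
Normalised counts of 12 genes per library, with circle, square and triangle for libraries 1, 2 and 3 of control (grey) and A, B and C of SuHx (red) and a bar for mean ± SD, n = 3. Every axis starts at 0. Of these 12 panels the groups overlap only for Lamp1, where SuHx lies between 3234 and 3529. The panels are a selection that favours separated genes: the groups overlapped in 25 of the 39 members, and did not overlap in 24.6% of all genes.

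The conjugation genes included the member of lowest p, Atg10, and 3 of 13 tested (23.1%) had every SuHx library below every control, where 11.6% of all genes did, while 0 had every one above, where 12.9% did. Atg10, the E2-like enzyme that joins Atg12 to Atg5, had normalised counts of 139, 116 and 105 in controls 1 to 3 against 66.7, 68.1 and 45.8 in SuHx A to C. The highest SuHx library was well below the lowest control, and SuHx was at 0.503 of control on this scale (log2 fold change -0.99, SE 0.23, adjusted p = 0.0787, limma). Rescaled to equal library totals, it was the 1 member called, at -1.31 and adjusted p = 0.034 by limma. The other enzymes around it overlapped between the groups. The E1-like Atg7 had 73.2 ± 11.4 in control and 90.9 ± 8.79 in SuHx (SD, n = 3), and the E2-like Atg3 had 260.1 ± 12.003 in control and 242 ± 17.7 in SuHx. Atg12, the ubiquitin-like protein that Atg10 transfers, had 323 ± 25.3 in control and 304 ± 7.25 in SuHx. Atg5 and Atg16l1, with which it forms the complex that attaches LC3 to the membrane, had log2 fold changes of 0.098 and -0.24 by limma. The cysteine proteases that prime and recycle LC3 proteins differed among themselves. Atg4d, named after its values were seen, was at 276, 289 and 360.1 in controls 1 to 3 against 257, 228 and 220.3 in SuHx A to C. SuHx C was lowest and control 3 highest, with no overlap (log2 fold change -0.38, SE 0.16, adjusted p = 0.289, limma). Atg4a, Atg4b and Atg4c overlapped, with log2 fold changes of 0.17, 0.14 and 0.22, and low counts in the case of Atg4c, 29.6 ± 8.45 in control and 33.9 ± 5.50 in SuHx (SD, n = 3).

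Of the LC3 and GABARAP genes, whose proteins are attached to the membrane and bind cargo receptors, Map1lc3a lay below control in every SuHx library, whereas Gabarap and Gabarapl2 overlapped between the groups. Map1lc3a was at 1179, 1225 and 1798 in controls 1 to 3 against 1138, 989.9 and 887 in SuHx A to C. Control 3 was far above the others, and SuHx A was only just below control 1, so the groups narrowly failed to overlap (log2 fold change -0.46, SE 0.20, adjusted p = 0.298, limma). Without control 3 its log2 fold change was -0.26. Gabarap was at 1185, 1148 and 1345 in controls 1 to 3 against 1459, 1217 and 1271 in SuHx A to C, and the groups overlapped (log2 fold change 0.10, SE 0.14, adjusted p = 0.751, limma). Gabarapl2 was at 480.1, 580.3 and 493 in controls 1 to 3 against 639, 584 and 534 in SuHx A to C, and the groups overlapped at control 2 (log2 fold change 0.18, SE 0.15, adjusted p = 0.578, limma). Shares of the summed counts of these 3 genes do not depend on a factor common to a whole library, though a factor that differs between genes would change them. Map1lc3a took 41.4%, 41.5% and 49.4% in controls 1 to 3 against 35.2%, 35.5% and 32.9% in SuHx A to C. Its share was lower in every SuHx library, with means of 44.1% ± 4.61 (SD, n = 3) and 34.5% ± 1.38 (two-sided exact permutation p = 0.1, the lowest these libraries can give). Gabarap took 39.2% ± 2.36 in control and 45.3% ± 1.82 in SuHx, and Gabarapl2 16.7% ± 3.05 and 20.2% ± 0.663, each with an exact permutation p = 0.1 (n = 3). The 3 shares make up the whole in each library, so a lower Map1lc3a share requires a higher joint share of Gabarap and Gabarapl2. The 3 p-values are therefore not separate results. The difference in the Map1lc3a share was -9.59 percentage points, and between -10.9 and -6.93 with each library left out in turn. Related genes of this kind can share reads, and Map1lc3b and Gabarapl1 are not part of the sum.

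**Figure D4:**
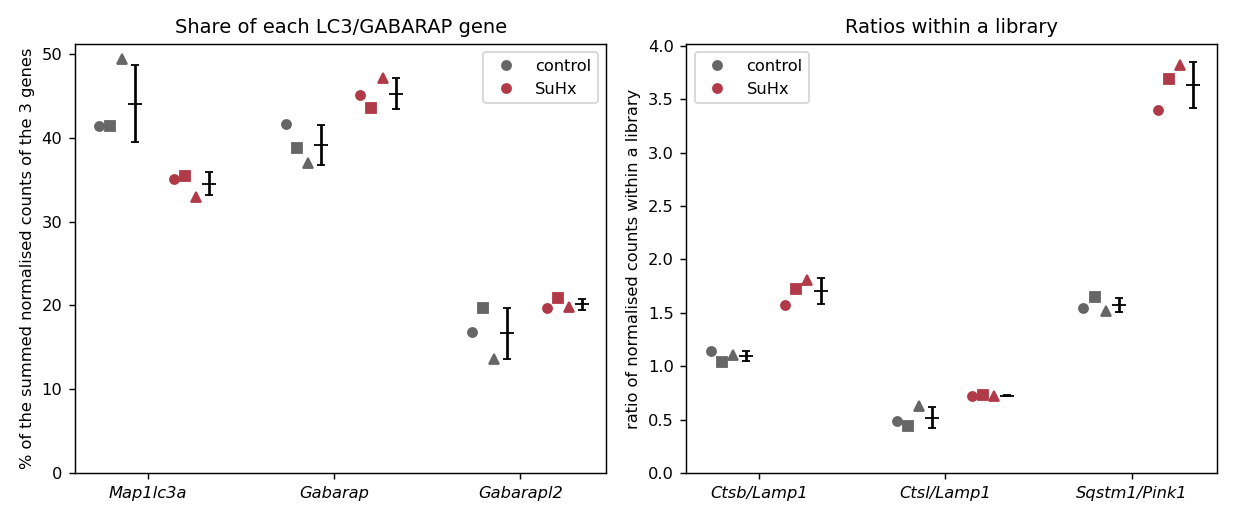
Left, the share of each LC3 and GABARAP gene in the summed normalised counts of the 3 genes, in percent. Right, ratios of normalised counts within a library, with control in grey, SuHx in red and bars for mean ± SD, n = 3. Map1lc3a took 34.5% ± 1.38 in SuHx against 44.1% ± 4.61 in control, and Sqstm1/Pink1 was at least 3.40 in SuHx and at most 1.65 in control. The ratios were chosen after the values were seen. Sqstm1 alone lay wholly above control and Pink1 wholly below, so their ratio could not overlap.

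Of the 3 cargo receptors tested, 2 lay above control in every SuHx library, as did 12.9% of all genes. Sqstm1 encodes p62, a receptor that binds ubiquitinated cargo and LC3 and is itself degraded by autophagy. Its normalised counts were 1434, 1787 and 1412 in controls 1 to 3 against 2589, 2065 and 2235 in SuHx A to C. SuHx A was highest and the groups did not overlap (log2 fold change 0.57, SE 0.16, adjusted p = 0.122, limma), which is 1.49-fold on this scale. Optn, a receptor for ubiquitinated mitochondria, was at 2345, 2363 and 1680.1 in controls 1 to 3 against 2906, 2752 and 2918 in SuHx A to C. The SuHx libraries lay close together above the controls, of which control 3 was far the lowest (log2 fold change 0.44, SE 0.17, adjusted p = 0.249, limma), and the log2 fold change was 0.28 without control 3. Tax1bp1, another ubiquitin-binding receptor, was at 1059 ± 30.2 in control and 1071 ± 128 in SuHx (SD, n = 3), with a log2 fold change of 0.01 (95% interval -0.32 to 0.34, limma).

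In both mitophagy genes tested, every SuHx library lay below every control, as in 11.6% of all genes. Pink1, the kinase that accumulates on damaged mitochondria and activates the ubiquitin ligase parkin, had normalised counts of 928, 1083 and 929 in controls 1 to 3 against 761, 560.3 and 585 in SuHx A to C. SuHx A was nearest to control and SuHx B lowest, and SuHx was at 0.645 of control on this scale (log2 fold change -0.63, SE 0.16, adjusted p = 0.108, limma). Fundc1, a receptor in the outer mitochondrial membrane known from mitophagy under hypoxia, was at 286, 298 and 187 in controls 1 to 3 against 156, 137 and 166 in SuHx A to C. SuHx was below even control 3, which was much lower than the other controls (log2 fold change -0.72, SE 0.21, adjusted p = 0.147, limma). Without control 3 Fundc1 was called lower, at -0.93 and adjusted p = 0.027 by limma, in a fit that called 136 genes lower against 72 with all libraries. Mitochondrial transcripts, whose share of the total was 53.9% ± 2.60 (SD, n = 3) in control and 60.2% ± 6.51 in SuHx (exact permutation p = 0.2, two-sided), overlapped between the groups. Within a library, Sqstm1 over Pink1 was 1.55, 1.65 and 1.52 in controls 1 to 3 against 3.40, 3.69 and 3.82 in SuHx A to C. Every SuHx ratio was more than the highest control ratio, in a pair chosen after the values were seen and given with no test. This had to be so, as Sqstm1 lay wholly above control and Pink1 wholly below.

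Of the 7 lysosomal genes tested, the cathepsins Ctsb, Ctsl and Ctsd lay above control in every SuHx library, where 12.9% of all genes did, and Lamp1, Lamp2, Rab7a and Tfeb overlapped. This does not hold for cathepsins as a family, since among the 7 other cathepsins analysed Ctsk alone lay above control and 6 overlapped (Ctsa, Ctsc, Ctsf, Ctsh, Ctss and Ctsz, named after their values were seen), with log2 fold changes from -0.75 for Ctsc to 0.70 for Ctss. Ctsb, a cysteine protease of the lysosome, had normalised counts of 4174, 3842 and 3234 in controls 1 to 3 against 5076, 5868 and 6390.1 in SuHx A to C. The lowest SuHx library was above the highest control (log2 fold change 0.63, SE 0.16, adjusted p = 0.106, limma), which is 1.54-fold on this scale. Ctsl, a second cysteine protease, was at 1769.9, 1628 and 1831 in controls 1 to 3 against 2338, 2485 and 2537 in SuHx A to C. The spread within both groups was small and the groups were far apart (log2 fold change 0.49, SE 0.12, adjusted p = 0.101, limma). Ctsd, the aspartic protease, named after its values were seen, was at 2848, 3052 and 2695 in controls 1 to 3 against 3424, 3149 and 4116 in SuHx A to C. SuHx B lay just above control 2, and the groups did not overlap (log2 fold change 0.31, SE 0.15, adjusted p = 0.348, limma). Its log2 fold change was 0.20 without SuHx C and -0.014 with the libraries rescaled to equal totals.

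Lamp1, a major protein of the lysosomal membrane, was at 3659, 3688 and 2928 in controls 1 to 3 against 3234, 3404 and 3529 in SuHx A to C. Its groups overlapped fully, with a log2 fold change of -0.0081 (95% interval -0.35 to 0.33, limma). Lamp2, the related membrane protein needed for fusion with autophagosomes, was at 760.4 ± 173 in control and 814 ± 164 in SuHx (SD, n = 3), and Rab7a, a small GTPase of late endosomes, at 1763 ± 90.4 in control and 1733 ± 54.2 in SuHx, both with overlap. Tfeb was at 175, 172 and 189 in controls 1 to 3 against 183, 131 and 142 in SuHx A to C. SuHx B and C were below every control and SuHx A was not (log2 fold change -0.24, SE 0.18, adjusted p = 0.525, limma), with -0.14 without SuHx B. Ctsb over Lamp1 was 1.14, 1.04 and 1.10 in controls 1 to 3 against 1.57, 1.72 and 1.81 in SuHx A to C, and Ctsl over Lamp1 was 0.484, 0.442 and 0.625 against 0.723, 0.730 and 0.719. Both ratios were higher in each SuHx library than in any control, and were chosen after the values were seen.

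Markers of macrophages, which also express cathepsins, are given beside these values. Of 15 macrophage markers, 12 were in the table and none of them was at 0. Fold changes were positive in 11 of 12, with 2 higher at an unadjusted p under 0.05 and 0 called by limma. Their summed counts were 1876, 1223 and 1275 in controls 1 to 3 against 1307, 3377 and 3264 in SuHx A to C. SuHx A was at the level of the controls and SuHx B and C were above it, and the part of macrophages in the cathepsin values was not tested. Fibroblast markers summed to 6716 to 12636 in control and 6937 to 10448 in SuHx, and endothelial markers to 5270.2 to 8919 and 5776 to 6878, with overlap in both.

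Of 116 further genes of the pathway in the table, 114 were tested, and 1 was called higher and 0 lower by limma, with 16 and 3 in those directions where p was left unadjusted at a limit of 0.05, which is 16.7% against 17.2% of all genes. In 25 every SuHx library lay above every control, 21.9% against 12.9% of all genes, and in 4 every one lay below, 3.51% against 11.6%. The called gene was Hspb8, a small heat shock protein that works with Bag3 in chaperone-assisted autophagy of damaged muscle proteins. Its normalised counts were 2618, 2987 and 2242 in controls 1 to 3 against 5528, 4395 and 5004 in SuHx A to C. The SuHx libraries were all far above the controls, and Hspb8 rose 1.91-fold (log2 fold change 0.93, SE 0.16, adjusted p = 0.0379, limma). The adjusted p ranged from 0.032 to 0.20 over the alternatives, and the call was lost with each library other than control 3 left out, with equal totals, with no mean-variance trend and without controls 1 and 3 together. Of the 7 chaperone-assisted genes, 4 lay wholly above control, 57.1% against 12.9% of all genes. They were Hspb8 and, named after their values were seen, Bag3, Synpo2 and Dnajb6, and the median log2 fold change over the 7 was 0.56. This list was chosen with earlier results of these data known, so its share only describes the 7 genes. Synpo2 was at 2782, 3400 and 852 in controls 1 to 3, and its log2 fold change of 1.46 was 0.84 without control 3.

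Other autophagy genes, 18 in all, held 6 wholly above control (33.3% against 12.9% of all genes) and 2 higher at an unadjusted p under 0.05 (11.1% against 9.61%). Fam134b, a receptor for autophagy of the endoplasmic reticulum, was at 1483, 1635 and 1030.4 in controls 1 to 3 against 2219, 2329 and 2231 in SuHx A to C, with no overlap (log2 fold change 0.74, SE 0.19, adjusted p = 0.106, limma). Without control 3 it was called higher, at 0.54 and adjusted p = 0.048 by limma, in a fit that called 266 genes higher against 166 with all libraries. Ncoa4, the ferritin receptor, overlapped (log2 fold change 0.096, SE 0.17, adjusted p = 0.809, limma). Among 14 other mitophagy genes, 1 lay wholly above (7.14% against 12.9% of all genes) and 2 wholly below (14.3% against 11.6%). Bnip3, a hypoxia-inducible mitophagy receptor, was at 1264, 1355 and 830.4 in controls 1 to 3 against 1868, 2533 and 1913 in SuHx A to C. It lay above control in every SuHx library (log2 fold change 0.89, SE 0.22, adjusted p = 0.101, limma), the side opposite to Fundc1 and Pink1, whereas Vdac1, a channel of the outer mitochondrial membrane that parkin ubiquitinates, overlapped (log2 fold change 0.13, SE 0.18, adjusted p = 0.746, limma).

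Of 38 other lysosomal hydrolases and membrane proteins, 7 lay wholly above control (18.4% against 12.9% of all genes) and 1 below (2.63% against 11.6%). Of 14 V-ATPase subunits, parts of the pump that acidifies the lysosome, 3 lay above (21.4%) and 0 below. Psap, the precursor of the saposins, was at 6461 ± 475 in control and 6588 ± 422 in SuHx (SD, n = 3) with a log2 fold change of 0.029. Igf2r, the receptor that sorts hydrolases to the lysosome, was at 2261, 2079 and 901 in controls 1 to 3 against 2358, 2823 and 2695 in SuHx A to C, and control 3 was far the lowest, with no overlap between the groups (log2 fold change 0.69, SE 0.34, adjusted p = 0.347, limma), and the log2 fold change was 0.27 without it. The V-ATPase subunits Atp6v0c and Atp6v0a1 had log2 fold changes of -0.0067 and -0.022. Of 23 upstream regulators tested, 4 lay above (17.4%) and 1 below (4.35%). Tp53inp2, which recruits LC3 proteins to the membrane, was at 3741, 3785 and 1986 in controls 1 to 3 against 5269, 4802 and 4922 in SuHx A to C, with control 3 lowest and no overlap (log2 fold change 0.72, SE 0.26, adjusted p = 0.227, limma), and its log2 fold change was 0.41 without control 3. Lamtor1, an anchor of the mTORC1 kinase on the lysosome, had a log2 fold change of -0.0037 (95% interval -0.36 to 0.35, limma).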

How the data were processed

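Libraries of RV tissue, 3 control and 3 SuHx, were made with a TruSeq kit and sequenced. Per the labels, the authors counted reads with Salmon 0.14.1 and normalised with DESeq2 1.24.0, so the deposited signal per gene is a normalised count. The build named is the mouse GRCm38.p6, whereas gene names include rat names, and which index gave the values was not settled. Of values below 12, 66.3% to 93.9% per library lay within 0.02 reads of a multiple of one step, so whole reads were not recovered, depth in reads is unknown, and no count model was run, the study's own Wald test included. That design is replaced by limma.

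Values were taken as log2(normalised count + 1) for 10725 genes with a mean of at least 10, fitted with limma 3.58.1 in R 4.3.3 with a mean-variance trend, with no covariate, two-sided, and adjusted by Benjamini-Hochberg over all genes. Fold changes on this scale understate those of low genes. Single values were compared by exact permutation of 3 against 3 libraries. An entry with no gene name, 0.00143% to 0.00514% of a total, was left out. The procedure was tested on simulated data with the same spread setting for every gene and no library set apart. That test does not cover controls that differ among themselves as those here do. Members and lists were chosen with earlier results of these data known. Named were called members, the 8 of smallest p, the 2 of highest mean per group, the LC3 and GABARAP genes, Tfeb and Park2, and in each related list the called genes or the 2 of highest mean, the remaining members being given to account for the list. Alternatives covered the pseudocount, the filter, 4 scalings (an unweighted trimmed mean of M values, TMM, the median of ratios and 2 kinds of equal totals), the trend, robust moderation and each library left out. Leaving out controls 1 and 3 together was an alternative chosen after seeing the data. It leaves control 2 as the only control, so its fold changes rest on that library alone and the control group has no spread. Plots were made in matplotlib 3.10.9.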

Additional observations from a re-analysis of the deposited data

How the results depend on the processing

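Under the 17 alternatives, 611 of 662 values of the members kept their direction and their side of the threshold, 49 turned direction and 2 became called, and 19 of the 39 members never turned direction. No paired analysis was possible because the SuHx columns carry no replicate numbers. Shares per transcript length were not run, since no transcript lengths were used here. The cause of the values below was not tested.

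Calls over all genes, 166 higher and 72 lower, were 88 and 190 with equal totals, 83 and 38 with no mean-variance trend, 97 and 8 without controls 1 and 3, and 11 to 266 and 6 to 136 with 1 library left out, the largest counts being those without control 3. Members called lower were 1 with equal totals and 0 to 1 with a library left out. Related genes called higher were 0 with equal totals and with no trend, and 0 to 5 with a library left out. Related genes called lower were 1 with equal totals and 0 to 2 with a library left out. Members higher at an unadjusted p under 0.05 were 0 with equal totals and 4 without SuHx C. The median fold change of the members, 0.088 on the log2 scale, was -0.23 with equal totals, where that of all genes was -0.31, -0.0094 with equal totals without mitochondrial transcripts, -0.039 without controls 1 and 3, and -0.058 to 0.14 with a library left out. With TMM factors, log2 fold changes turned direction to 0.0030 for Atp6v0c, 0.0016 for Lamp1 and 0.0060 for Lamtor1. With equal totals, log2 fold changes turned direction to -0.13 for Atg2b, -0.15 for Atg4a, -0.18 for Atg4b, -0.092 for Atg4c, -0.22 for Atg5, -0.0011 for Atg7, -0.25 for Atg9a, -0.014 for Ctsd, -0.22 for Gabarap, -0.14 for Gabarapl2, -0.22 for Lamp2, -0.22 for Ncoa4, -0.29 for Psap, -0.23 for Rb1cc1, -0.31 for Tax1bp1, -0.19 for Vdac1, -0.085 for Wipi1 and -0.24 for Wipi2. With equal totals without mitochondrial transcripts, log2 fold changes turned direction to -0.029 for Atg9a, -0.0013 for Ncoa4, -0.069 for Psap, -0.0094 for Rb1cc1, -0.088 for Tax1bp1 and -0.019 for Wipi2. Without controls 1 and 3, log2 fold changes turned direction to 0.12 for Atg16l1, -0.16 for Atg2b, -0.11 for Atg4a, -0.073 for Atg4c, -0.039 for Atg5, 0.030 for Atp6v0c, -0.081 for Ncoa4, 0.10 for Pik3c3, -0.039 for Psap, -0.20 for Rb1cc1, -0.13 for Vdac1, -0.093 for Wipi1 and -0.089 for Wipi2. With a library left out, those that turned direction ranged from -0.010 to 0.53 for Atg2b, -0.068 to 0.31 for Atg4a, -0.034 to 0.36 for Atg4c, -0.088 to 0.28 for Atg5, -0.020 to 0.13 for Atg9a, -0.12 to 0.036 for Atp6v0a1, -0.054 to 0.059 for Atp6v0c, -0.12 to 0.049 for Lamp1, -0.083 to 0.28 for Lamp2, -0.095 to 0.077 for Lamtor1, -0.047 to 0.19 for Ncoa4, -0.034 to 0.083 for Psap, -0.067 to 0.0018 for Rab7a, -0.083 to 0.23 for Rb1cc1, -0.069 to 0.10 for Tax1bp1, -0.098 to 0.042 for Uvrag, -0.026 to 0.26 for Vdac1 and -0.11 to 0.18 for Wipi2.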

Other observations

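Several further genes of the lysosome and of upstream control, named after their values were seen, stood apart between the groups without being called. Ctsk, a collagen-degrading cathepsin, was at 73.8, 65.6 and 94.7 in controls 1 to 3 against 146, 142 and 153 in SuHx A to C, and Grn, the precursor of granulins in the lysosome, at 915, 923 and 967 in controls 1 to 3 against 1309.7, 1645 and 1789.5 in SuHx A to C. In both every SuHx library lay above every control, with adjusted p = 0.0598 and 0.0599 by limma. Without control 3 both were called, as were Fam134b, Hspb8 and Synpo2 higher and Fundc1, Laptm4b and Ctsc lower. That fit called more genes in general, 266 higher and 136 lower, against 166 and 72 with all libraries. Laptm4b, a lysosomal membrane protein, was at 535, 430.2 and 404 in controls 1 to 3 against 229, 306 and 256 in SuHx A to C, below control in each SuHx library (log2 fold change -0.79, SE 0.18, adjusted p = 0.0765, limma). Tp53inp1, a p53 target that binds LC3 proteins, was at 16.7, 26.04 and 15.00 in controls 1 to 3 against 37.4, 55.3 and 43.9 in SuHx A to C, with low counts and no overlap (log2 fold change 1.22, SE 0.32, adjusted p = 0.112, limma).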
